A study of Mus musculus with 6 samples.

Results

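The ERK cascade and feedback genes described here are 8 of the 21911 protein-coding gene symbols annotated by GENCODE M21. They are the kinase genes Braf, Map2k1, Map2k2 and Mapk3, and the feedback genes Dusp4, Dusp5, Dusp6 and Spry2. The genes were chosen by name, and for each one the H3K4me3 peaks lying within 1 kb of any annotated transcript start were taken from 6 peak lists. The cells were STHdh cells, profiled by H3K4me3 ChIP-Seq. They are conditionally immortalized striatal progenitor cells of mouse, labelled as strain C57BL/6. The Q7SST list came from the wild-type line (STHdhQ7, written STHdh7 in the labels) with vehicle. The Q111SST list came from the mutant line (STHdhQ111, homozygous for a knocked-in expansion of huntingtin) with vehicle, and 4 lists came from the same mutant line with 10 μM of Cyproheptadine, Loxapine, Diacylglycerol kinase inhibitor II (DKI) or Meclizine. All cells were kept without serum for 24 hours, so no list shows these genes in cells growing in serum. Each genotype was represented by 1 purchased line, and there was 1 list per condition, so there is no spread between replicates, no test was made, and every difference given is a difference between 2 lists.

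The ERK pathway carries growth factor signals from RAS to the nucleus. RAF kinases such as BRAF phosphorylate the kinases MEK1 and MEK2 (Map2k1 and Map2k2), and these phosphorylate ERK kinases such as ERK1 (Mapk3). Active ERK induces transcription of its own inhibitors, among them the dual-specificity phosphatases, which remove the phosphates from ERK, and the Sprouty proteins, which dampen signalling from receptor tyrosine kinases. H3K4me3 is the trimethylated form of lysine 4 on histone H3 and is found at the starts of active and poised genes.

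The lists held between 30758 peaks (DKI) and 45564 peaks (Loxapine), with a median width between 766 and 922 bp. Scores are whole numbers of 10 or more whose scale is not stated, and read depth is unknown. The profiles are of whole cultures, so a mark in fewer cells and a weaker mark in every cell cannot be told apart. Peaks were compared by strength percentile, the place of a score among all scores of the same list. Among the cell type markers, Dlx1, Dlx2, Meis2 and Ebf1 of the striatal progenitor set were marked in all 6 lists (4 of 8), as were Foxp1 of the striatal neuron set (1 of 7) and all 3 fibroblast genes. Of the other striatal neuron genes, Penk was marked in 5 lists, Ppp1r1b in 4, Adora2a and Bcl11b in Q7SST alone, and Drd1 and Drd2 in none. No astrocyte, oligodendrocyte, microglia or endothelium marker was marked in all 6 lists, but Gfap was marked in the 5 mutant lists, Aldh1l1 in 4 lists, Aif1 and Tek in 2 each and Mbp in 1.

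All 8 genes were marked in all 6 lists. Marking was common at promoters. It reached 59.9% of protein-coding genes in Q7SST, 58.4% in Q111SST, 55.4% in Cyproheptadine, 58.1% in Loxapine, 55.8% in DKI and 58.6% in Meclizine, and 53.5% were marked in all 6. Presence of a peak therefore did not set these genes apart from the 11713 genes marked throughout. The gene start itself lay under a peak at 5 of the 8 genes in Q7SST (76.1% of marked genes), 5 in Q111SST (76.0%), 4 in Cyproheptadine (68.3%), 5 in Loxapine (70.8%), 5 in DKI (72.1%) and 6 in Meclizine (77.4%). Map2k2, Dusp4, Dusp5 and Dusp6 had it covered in all 6 lists, as 64.3% of genes marked throughout did. Spry2 had it covered in Meclizine alone, a pattern of 1.27%. This pattern, and the patterns of covered starts, peak edges and splits counted for Braf, Mapk3, Dusp4, Dusp5 and Dusp6, were each defined, with any distance in them, from what had been seen at the gene concerned, so their shares describe how common a pattern was and support nothing about that gene. What differed among the 8 genes was strength, length and the position of the mark relative to the gene start, the 5′ end of the gene record.

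**Figure D1:**
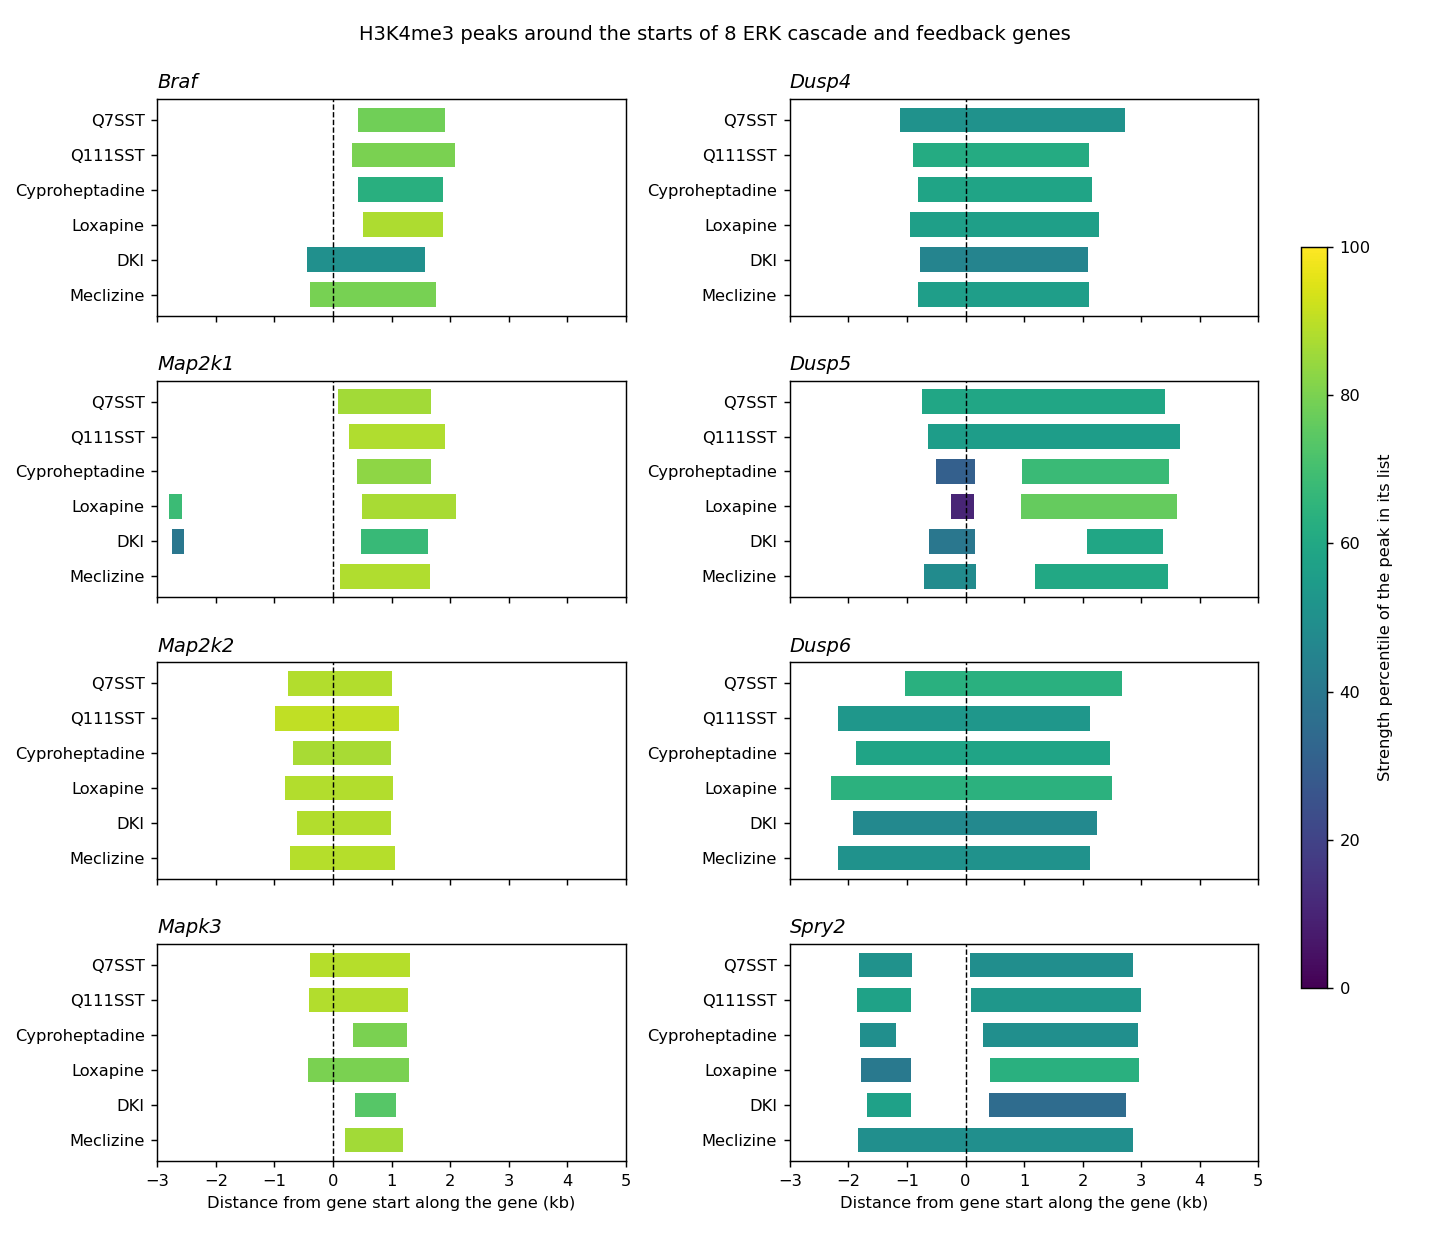
Peaks of each list (rows) around the 8 gene starts (dashed line), plotted as distance from the gene start in kb along the direction of transcription, between 3 kb upstream and 5 kb downstream, and coloured by the strength percentile of the peak in its list. Dusp5 is covered by 1 peak in Q7SST and Q111SST and by 2 in each compound list, and Spry2 by 2 peaks in 5 lists and by 1 in Meclizine.

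In Q111SST the kinase genes carried peaks of ordinary length and strength, and the feedback genes carried weaker marks that covered longer stretches in total. Ranked among marked genes of that list, the cascade genes lay between the 43.0 and 71.2 percentiles of strength and the feedback genes between 10.9 and 16.1. In Q111SST the cascade genes lay between strength percentiles 79.7 and 90.3 and the feedback genes between 53.1 and 61.3, where the median of the 12790 genes marked in that list was 82.6. All 4 cascade genes were stronger than all 4 feedback genes in Q7SST, Q111SST, Loxapine and Meclizine. The order was mixed in Cyproheptadine, where Braf (63.1) fell under Dusp5 (67.8), and in DKI, where Braf (49.9) fell under Spry2 (56.8). Both exceptions depend on which piece of a split mark is taken. The start piece of Dusp5 lay at 30.5 in Cyproheptadine and the inner piece of Spry2 at 34.8 in DKI, both under Braf. The inner piece of Dusp5, not within 1 kb in DKI, lay at 59.1 there, above Braf. Among marked genes, Braf was at the 16.0 percentile of strength in DKI, and the width of Mapk3 was at the 10.8 percentile in DKI, 14.1 in Meclizine and 16.7 in Cyproheptadine. For length, the bases under any peak within 4 kb of the gene start were counted, a measure chosen after the split peaks had been seen. The feedback genes had 3012 to 4305 bp covered in Q111SST and the cascade genes 1641 to 2125 bp, beside a median of 1859 bp over the genes with any coverage there.

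**Figure D2:**
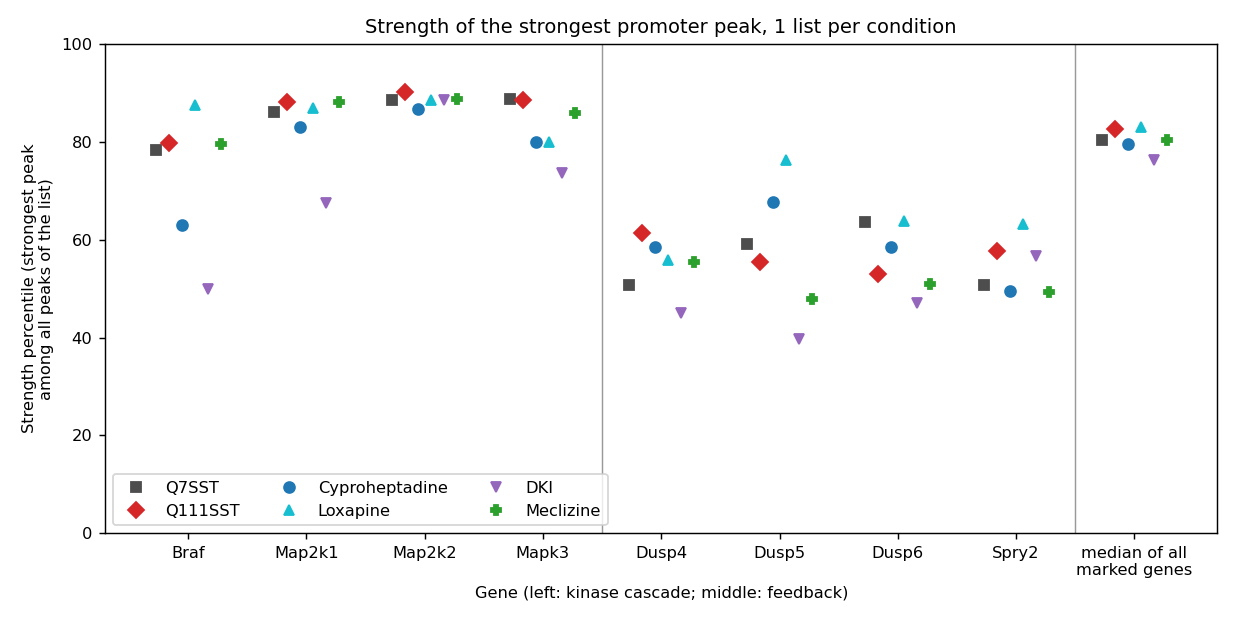
Strength percentile of the strongest peak within 1 kb of a start, for each gene and list, with 1 point per list and no error bars because each condition has 1 list. Map2k2 stays between 86.8 and 90.3, while Braf ranges from 49.9 in DKI to 87.5 in Loxapine.

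**Figure D3:**
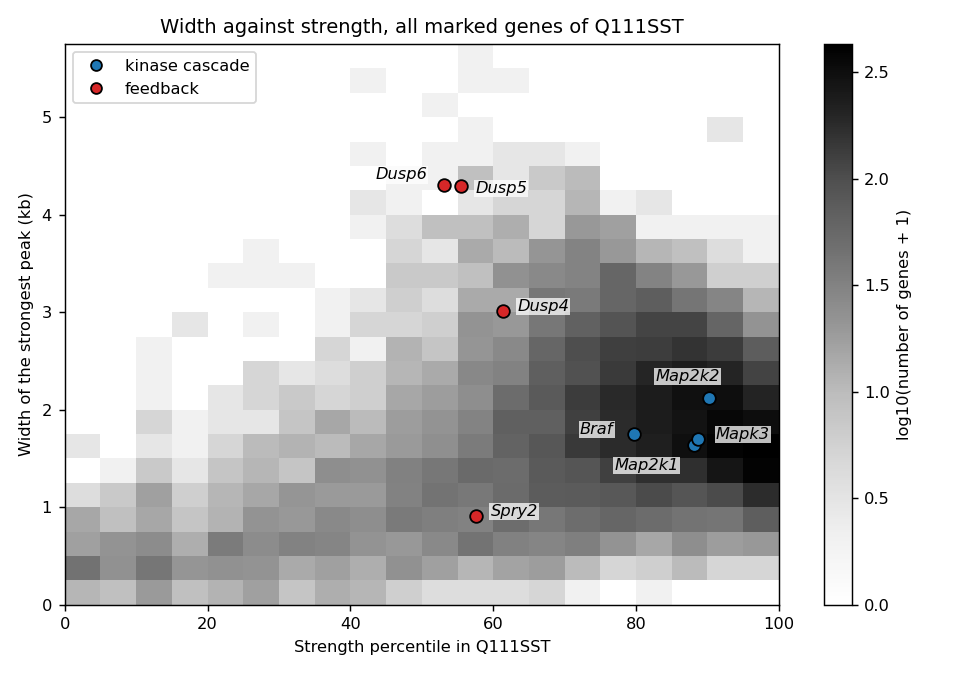
Width of the strongest peak in kb against its strength percentile in Q111SST, with the number of marked genes per bin in grey on a log10 scale. Dusp4, Dusp5 and Dusp6 lie at 3.012, 4.297 and 4.305 kb with strengths between 53.1 and 61.3, away from the dense part of the plot where the 4 cascade genes lie. Spry2, plotted by 1 of its 2 peaks, lies at 0.911 kb and strength 57.6.

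Braf, the RAF kinase at the head of the cascade, lies on chromosome 6 between 39603237 and 39725463 on the minus strand (mm10). Its strength percentile was 78.3 in Q7SST, 79.7 in Q111SST, 63.1 in Cyproheptadine, 87.5 in Loxapine, 49.9 in DKI and 79.5 in Meclizine. Braf had the widest range of the 8 genes, 37.7 points. Its peak lay wholly inside the gene in 4 lists, starting between 326 and 511 bp downstream of the gene start and ending between 1880 and 2074 bp. In DKI and Meclizine it reached across the start, to 437 and 392 bp upstream. Having the start under a peak in exactly these 2 lists was found at 26 of 11713 genes marked throughout (0.222%). The peak was longest in those lists, at 2011 bp in DKI and 2149 bp in Meclizine, against 1749 bp in Q111SST. In DKI it was thus long and at its weakest. A separate intronic peak about 8 kb into the gene was present in all 6 lists, between the 20.2 percentile (DKI) and the 53.6 percentile (Loxapine).

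Map2k1, which encodes MEK1, lies on chromosome 9 between 64185770 and 64253631 on the minus strand. The strength percentile of its peak was 86.2 in Q7SST, 88.1 in Q111SST, 83.1 in Cyproheptadine, 87.0 in Loxapine, 67.4 in DKI and 88.1 in Meclizine. Only DKI stood apart, 20.7 points under Q111SST. The peak was 1133 bp long in DKI and up to 1641 bp long in Q111SST. In no list did the peak touch the gene start, and it began 89 bp downstream in Q7SST, 275 bp in Q111SST, 417 bp in Cyproheptadine, 491 bp in Loxapine, 486 bp in DKI and 124 bp in Meclizine. A start free of peaks in all 6 lists was found at 14.5% of the genes marked throughout. Loxapine and DKI held a further short peak more than 2.5 kb upstream of the gene, at strength percentiles 68.0 and 39.7.

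The promoter windows of Braf and Map2k1, from 250 bases before to 49 after the RefSeq start (GRCm38.p6, 300 bases, 5′ to 3′), are shown because peaks covered them in few lists or none. Braf is at chr6:39725414-39725713 and Map2k1 at chr9:64253556-64253855, both on the minus strand. Capitals mark matches to the motifs searched on both strands, which were the cAMP response element TGACGTCA, the GC box GGGCGG, the ETS core CCGGAAG, the AP-1 site TGANTCA, the TATA box TATAAA and the CArG box (CC, 6 of A or T, GG).
Braf: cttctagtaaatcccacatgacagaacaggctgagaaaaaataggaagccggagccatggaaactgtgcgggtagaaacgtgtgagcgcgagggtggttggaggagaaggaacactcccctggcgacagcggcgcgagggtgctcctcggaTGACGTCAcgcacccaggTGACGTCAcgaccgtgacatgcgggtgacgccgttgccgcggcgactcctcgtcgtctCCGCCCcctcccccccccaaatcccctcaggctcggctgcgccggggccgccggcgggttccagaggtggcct
Map2k1: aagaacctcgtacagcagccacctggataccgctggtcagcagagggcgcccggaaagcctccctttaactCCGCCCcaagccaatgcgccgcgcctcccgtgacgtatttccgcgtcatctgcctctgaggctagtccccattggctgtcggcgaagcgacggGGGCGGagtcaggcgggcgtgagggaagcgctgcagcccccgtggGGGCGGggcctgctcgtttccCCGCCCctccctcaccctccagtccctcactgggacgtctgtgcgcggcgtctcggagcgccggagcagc
The Braf window held 2 cAMP response elements, at -99 to -92 and -81 to -74 from the RefSeq start, and 1 GC box. A cAMP response element was present in 1.79% of the 32851 windows of that length. The Map2k1 window held 4 GC boxes, a motif found in 35.7% of windows. All 300 bases of the Braf window were under a peak in DKI and Meclizine and 0 bases in the other 4 lists. No base of the Map2k1 window was under a peak in any list.

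Map2k2, which encodes MEK2, lies on chromosome 10 between 81105915 and 81133975 on the plus strand. Its strength percentile was 88.6 in Q7SST, 90.3 in Q111SST, 86.8 in Cyproheptadine, 88.5 in Loxapine, 88.5 in DKI and 88.8 in Meclizine. Among all peaks this was the narrowest range of the 8 genes, 3.46 points, and the start was under the peak in all 6 lists. Among marked promoters Map2k2 ran from 64.4 to 74.8, and the range of Dusp4 was narrower (12.2 to 18.3). The peak was longest in Q111SST at 2125 bp and shortest in DKI at 1596 bp. A further peak about 23 kb into the gene and within 1 kb of an internal transcript start, varied more. Its strength percentile was 80.4 in Q7SST, 75.1 in Q111SST, 32.0 in Cyproheptadine, 59.5 in Loxapine, 56.8 in DKI and 64.0 in Meclizine.

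Mapk3, which encodes ERK1, lies on chromosome 7 between 126759601 and 126765819 on the plus strand. Peak strength lay at percentile 88.8 in Q7SST, 88.6 in Q111SST, 80.0 in Cyproheptadine, 80.1 in Loxapine, 73.7 in DKI and 86.0 in Meclizine. The peak was 1715 bp long in Q7SST, 1699 bp in Q111SST and 1734 bp in Loxapine, and 925 bp in Cyproheptadine, 702 bp in DKI and 988 bp in Meclizine. In the 3 long lists it crossed the gene start, beginning 395 to 435 bp upstream. In the 3 short lists it began 334, 371 and 205 bp downstream, while its far end stayed between 1072 bp (DKI) and 1319 bp (Q7SST) over the 6 lists. A start covered in exactly Q7SST, Q111SST and Loxapine was found at 24 genes (0.205%).

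Dusp4, a nuclear dual-specificity phosphatase, lies on chromosome 8 between 34807297 and 34819894 on the plus strand. The strongest peak within 1 kb of the start lay at percentile 50.8 in Q7SST, 61.3 in Q111SST, 58.5 in Cyproheptadine, 55.9 in Loxapine, 45.1 in DKI and 55.5 in Meclizine. The peak was 3838 bp long in Q7SST and 2865 to 3220 bp long in the 5 mutant lists. The extra length in Q7SST lay mostly inside the gene, where the peak ended at 2724 bp and those of the mutant lists ended between 2088 and 2272 bp. An end at least 400 bp past that of every mutant list was found at 1.55% of the 7537 genes whose start was under a peak in all 6 lists. An intronic peak about 8 kb into the gene, not within reach of the start, was present in 5 lists and not in Cyproheptadine. It lay at percentile 38.9 in Q7SST, 40.6 in Q111SST, 6.65 in Loxapine, 59.1 in DKI and 40.1 in Meclizine, so in DKI it was stronger than the promoter peak.

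Dusp5, a nuclear phosphatase that acts on ERK, lies on chromosome 19 between 53529109 and 53542431 on the plus strand. Its promoter window (GRCm38.p6, chr19:53528895-53529194, plus strand) is shown because it stayed under a peak in all 6 lists while the stretch next to it did not, and because it held 2 adjacent CArG boxes, the element bound by serum response factor.
Dusp5: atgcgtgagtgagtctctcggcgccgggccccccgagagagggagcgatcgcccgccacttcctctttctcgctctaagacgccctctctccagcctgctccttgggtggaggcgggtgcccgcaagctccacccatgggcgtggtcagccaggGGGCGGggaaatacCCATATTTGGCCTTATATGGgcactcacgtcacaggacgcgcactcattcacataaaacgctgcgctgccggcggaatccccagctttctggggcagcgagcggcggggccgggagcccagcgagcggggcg
The CArG boxes lay at -82 to -73 and -72 to -63 from the RefSeq start, which is 36 bp downstream of the gene start used for the peaks. A CArG box was present in 1.63% of the 32851 windows, and Dusp5 was the only one of the 6 windows at hand with a match. A GC box lay at -96 to -91.

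A single peak ran over Dusp5 from 747 bp upstream to 3400 bp downstream in Q7SST and from 642 bp upstream to 3654 bp downstream in Q111SST. In each of the 4 compound lists the same stretch held 2 peaks. The gap between them ran from 157 to 964 bp in Cyproheptadine, 147 to 945 bp in Loxapine, 162 to 2067 bp in DKI and 173 to 1186 bp in Meclizine. A Q111SST peak met by 2 or more peaks was found at 1.33% of marked genes in Q7SST, 4.32% in Cyproheptadine, 3.88% in Loxapine, 3.75% in DKI and 0.821% in Meclizine. Among the 806 genes with a Q111SST peak of 3 kb or more these shares were 12.0%, 28.0%, 25.7%, 24.3% and 7.57%. The whole pattern, 1 peak in both vehicle lists and 2 or more in all 4 compound lists, was found at 26 of 12790 genes (0.203%), and at 1.86% of the 806 with long peaks. Total covered length was 4148 bp in Q7SST, 4297 bp in Q111SST, 3161 bp in Cyproheptadine, 3062 bp in Loxapine, 2089 bp in DKI and 3162 bp in Meclizine, so DKI lost the most.

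The pieces of Dusp5 differed in strength. The piece over the gene start lay at percentile 30.5 in Cyproheptadine, 10.4 in Loxapine, 39.7 in DKI and 47.8 in Meclizine, each under the whole peak in Q111SST (55.5) and Q7SST (59.1). The piece inside the gene lay at 67.8, 76.4, 59.1 and 59.9 in the same order, each above the Q111SST peak. That inner piece came within 1 kb of the start in Cyproheptadine and Loxapine but not in DKI and Meclizine, so the strength assigned to Dusp5 was that of the inner piece in the former and of the start piece in the latter. The start of AC137853.2, an antisense gene, lay 546 bp downstream of the Dusp5 start, inside the gap of all 4 compound lists.

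Dusp6, the cytoplasmic ERK phosphatase, lies on chromosome 10 between 99263231 and 99267489 on the plus strand. The peak had a strength percentile of 63.5 in Q7SST, 53.1 in Q111SST, 58.5 in Cyproheptadine, 63.9 in Loxapine, 47.0 in DKI and 50.9 in Meclizine. A single unbroken peak of 3707 to 4802 bp covered the start in all 6 lists, at or above the 98.9 percentile of width among marked genes. Its upstream edge lay nearer to the gene start in Q7SST than in any mutant list. It lay 1042 bp upstream in Q7SST and 2178 bp in Q111SST, 1864 bp in Cyproheptadine, 2305 bp in Loxapine, 1918 bp in DKI and 2181 bp in Meclizine. An upstream edge in Q7SST at least 400 bp short of every mutant list was found at 26 of 7537 genes (0.345%). With 1 line per genotype and 1 Q7SST list, the huntingtin genotype, other differences between the 2 lines and a difference between lists cannot be told apart.

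Spry2, a Sprouty inhibitor of receptor tyrosine kinase signalling, lies on chromosome 14 between 105891947 and 105896819 on the minus strand. Its promoter window (GRCm38.p6, chr14:105896770-105897069, minus strand) is shown because it fell in a gap between 2 peaks in every list but Meclizine, and no searched motif matched in it.
Spry2: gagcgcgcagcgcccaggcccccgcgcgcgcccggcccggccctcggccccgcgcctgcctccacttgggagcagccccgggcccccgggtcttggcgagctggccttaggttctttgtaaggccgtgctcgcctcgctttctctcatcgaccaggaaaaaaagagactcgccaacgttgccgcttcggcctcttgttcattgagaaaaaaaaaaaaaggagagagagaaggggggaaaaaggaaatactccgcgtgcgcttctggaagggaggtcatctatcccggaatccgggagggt
The gap ran from 909 bp upstream to 70 bp downstream of the start in Q7SST, from 934 to 96 bp in Q111SST, from 1184 to 305 bp in Cyproheptadine, from 938 to 416 bp in Loxapine and from 932 to 403 bp in DKI. In Meclizine a single peak of 4694 bp ran from 1828 bp upstream to 2865 bp downstream. Joining of neighbouring Q111SST peaks was found in Meclizine at 11.7% of the 1977 genes with 2 or more such peaks, and at 0.860% in Cyproheptadine, 1.67% in Loxapine, 2.98% in DKI and 7.49% in Q7SST.

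The strength percentile of Spry2 was 50.8 in Q7SST, 57.6 in Q111SST, 49.6 in Cyproheptadine, 63.3 in Loxapine, 56.8 in DKI and 49.4 in Meclizine. The upstream piece was the stronger in Q7SST, Q111SST and DKI, and the inner piece in Loxapine. In Cyproheptadine the pieces had equal scores, and only the inner piece came within 1 kb. The width of the strongest peak therefore switched between 743 bp and 2632 bp over the 5 split lists without a like change in total length. Covered length within 4 kb was 3692 bp in Q7SST, 3816 bp in Q111SST, 3247 bp in Cyproheptadine, 3381 bp in Loxapine, 3081 bp in DKI and 4694 bp in Meclizine. Spry2 and Dusp6 had 3000 bp or more covered in all 6 lists, as 166 of all 21911 genes had (0.758%).

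**Figure D4:**
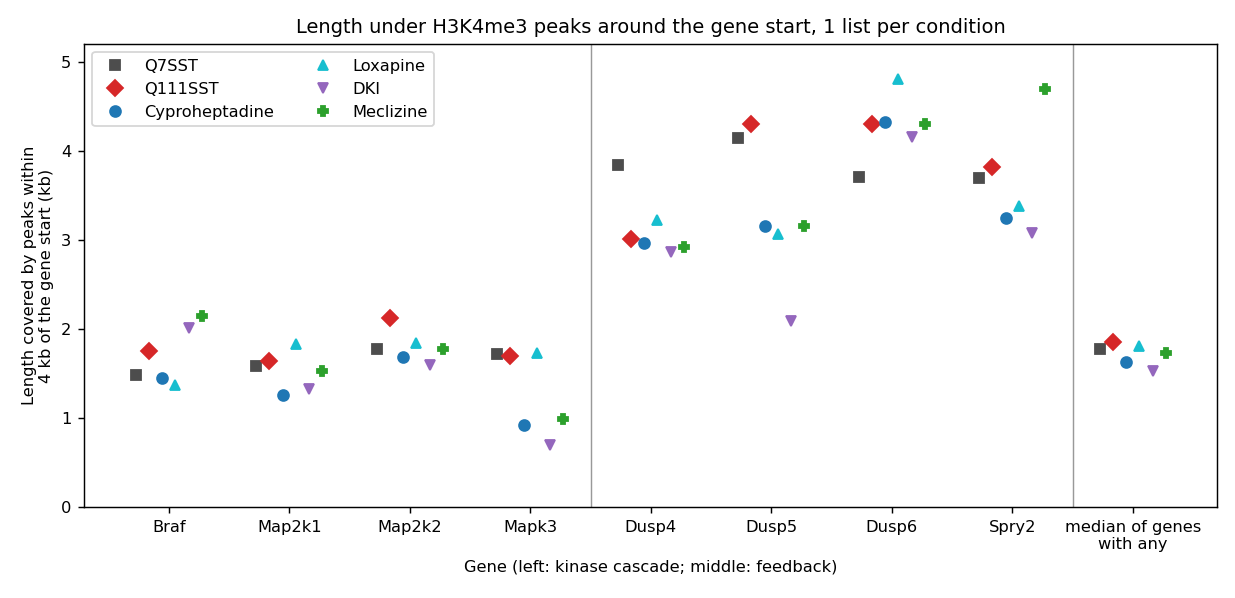
Length in kb under H3K4me3 peaks within 4 kb of the gene start, by gene and list, with the median over all genes with any coverage at the right. Every feedback gene lies above the median of each list, with Dusp5 in DKI the shortest at 2089 bp.

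Against Q111SST, the wild-type list placed Dusp6 higher by 10.4 points and Dusp4 lower by 10.5 points, and the other 6 genes within 10 points. Rises of 10 points or more were found at 8.85% and falls at 13.0% of the 12335 genes marked in both lists. The fall of Dusp4 was 3.83 points when genes were ranked among marked promoters only, while Dusp6 stayed 10.6 points higher and kept its call on all 3 scales tried (6.05% of genes). No strongest peak differed in width by 1.5 times or more, beside 5.82% wider and 6.89% narrower of all genes. For the 4 cascade genes the differences in strength, Q7SST minus Q111SST, ran from -1.90 to 0.217 points.

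Under Cyproheptadine, an antihistamine and serotonin antagonist, Dusp5 was 12.3 points higher and Braf 16.7 points lower than in Q111SST. Such rises were found at 3.48% and falls at 25.9% of 12061 genes. The rise of Dusp5 was that of its inner piece. With the start piece alone, Dusp5 lay under its Q111SST value (30.5 against 55.5). Braf was lower by 10 points or more also in lists cut to equal size and among marked promoters, as 14.1% of genes were on all 3 scales together. In lists of equal size Dusp6 was also higher by 10 points or more (54.5 against 38.4, beside 10.0% of genes), and among marked promoters Mapk3 was lower by 15.2 points (26.9% of genes). Strongest peaks 1.5 times narrower were those of Mapk3 and Dusp5 (16.0% of genes), and that of Spry2 was wider (0.978%) through the switch between its pieces. The Dusp5 call came with its split and did not hold by covered length within 4 kb (3161 against 4297 bp).

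Under Loxapine, an antipsychotic, Dusp5 was 20.9 points and Dusp6 10.8 points higher. Rises were found at 7.10% and falls at 9.41% of 12519 genes, and none of the 8 genes was lower by 10 points among all peaks. In lists of equal size, Dusp6 was under the step (46.5 against 38.4 in Q111SST), as it was among marked promoters (9.30 points). On the equal-size scale Mapk3 (70.5 against 85.1) and Dusp4 (34.6 against 49.2) were lower by 10 points or more, as were 21.2% of genes. Dusp5 alone was higher by 10 points or more on all 3 scales (4.90% of genes). The Dusp5 value again came from its inner piece, and the start piece lay at 10.4. Among marked promoters Braf was 18.6 points higher and Mapk3 23.0 points lower, beside 17.4% of genes higher and 18.5% lower on that scale. Among all peaks these changes were 7.80 and -8.55 points. Dusp5 had a strongest peak 1.5 times narrower (8.51% of genes) and Spry2 a wider one (2.52%). Both calls depended on which piece was scored. Neither held by covered length within 4 kb (3062 against 4297 bp, and 3381 against 3816 bp).

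DKI inhibits diacylglycerol kinase, which removes the lipid messenger diacylglycerol, an activator of RAS exchange factors and protein kinase C. In its list 5 of the 8 genes were lower by 10 points or more. Braf was lower by 29.9 points, Map2k1 by 20.7, Dusp4 by 16.3, Dusp5 by 15.8 and Mapk3 by 14.9. The Dusp5 value is that of its start piece, and its inner piece lay at 59.1, above Q111SST (55.5). Falls of that size were found at 38.8% of the 12158 genes marked within 1 kb in both lists, and with a 5 kb window 4 of the 8 genes were lower, beside 37.6% of 13105 genes. Rises, of which there were none here among all peaks, were found at 3.55% within 1 kb. In lists of equal size Spry2 was higher (56.8 against 44.3), beside 11.2% of genes. The DKI list was the shortest, and the median change over all genes was -6.57 points. Braf, Map2k1 and Mapk3 stayed lower by 10 points or more on the other 2 scales, in lists of equal size and among marked promoters, as 18.2% of genes did on all 3 scales together. Dusp4 and Dusp5 did not, with falls of 3.29 and 2.23 points among marked promoters. Map2k2, the paralogue of Map2k1, was lower by 1.74 points among all peaks and higher by 3.58 among marked promoters. Mapk3 and Dusp5 had narrower strongest peaks (18.7% of genes), and none of the 8 genes had a wider one (1.32%).

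Under Meclizine, an antihistamine, none of the 8 genes moved by 10 points, beside 4.18% of 12615 genes higher and 10.0% lower. The strongest peaks of Mapk3 and Dusp5 were narrower (4.63% of genes) and that of Spry2 wider (3.78%). The Dusp5 and Spry2 calls came with the splitting and joining of peaks. Neither held by covered length within 4 kb (3162 against 4297 bp, and 4694 against 3816 bp). All 5 comparisons used the same Q111SST list, so they are not independent of each other.

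Several stretches next to the gene starts that lacked a peak in some lists were rich in G and C. The Dusp5 stretch absent from all 4 compound lists (173 to 945 bp, 773 bp) had 69.9% GC and 10.7 CpG per 100 bp, and the inner piece kept in all 6 lists had 51.1% GC and 1.75 CpG per 100 bp. The rest of the longer DKI gap was not GC rich. Its 881 bp from 1187 to 2067 bp, without a peak in DKI alone, had 49.5% GC and 1.02 CpG per 100 bp, and the 222 bp before them had 53.6% GC. The Spry2 gap (980 bp) had 68.8% GC and 10.4 CpG per 100 bp, and the Braf stretch covered only in DKI and Meclizine (718 bp) had 67.6% and 11.6. At Mapk3 the 600 bp covered only in Q7SST, Q111SST and Loxapine had 68.2% GC, and the 702 bp covered in all 6 lists had 55.3%. At Dusp6 the 822 bp upstream of the start that were covered in every list but Q7SST had 66.6% GC and 9.85 CpG per 100 bp. Richness in G and C did not always go with a gap. The start piece of Dusp5, kept in all lists, had 68.5% GC, and 62.3% was found in the Map2k2 stretch of 1596 bp that all lists covered.

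The lists themselves differed in this respect. Among genes marked in all 6 lists, the 2990 richest in GC within 150 bp of the start (69.8% or more) had the start under a peak in 73.6% of cases in Q7SST, 71.7% in Q111SST, 55.5% in Cyproheptadine, 60.6% in Loxapine, 61.4% in DKI and 76.9% in Meclizine. In the 2944 poorest (56.8% or less) the shares lay between 62.5% and 67.6%. The part of GC content in the split at Dusp5, the shortening at Mapk3 and the upstream edge at Dusp6 was not tested. The wide feedback genes had more CpG than the cascade genes over the 4001 bp from 1 kb upstream to 3 kb downstream. Dusp4 had 283, Spry2 231, Dusp5 192 and Dusp6 165, against 143 at Braf, 128 at Map2k1, 124 at Map2k2 and 97 at Mapk3, and a median of 113 over genes marked in Q111SST. Across those 12790 genes the Spearman correlation of CpG count was 0.253 with peak width and -0.114 with strength, a description over genes that share 1 list.

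Of 46 further genes of the RAS and ERK pathway, 43 were marked in all 6 lists. Spry3 was not matched to a protein-coding symbol. Ksr2, a scaffold of RAF and MEK, was marked only in Q7SST, at percentile 36.5. Rasgrp1, a RAS exchange factor activated by diacylglycerol, was marked in 4 lists (44.4 in Q7SST, 36.8 in Q111SST, 39.5 in Loxapine and 34.9 in Meclizine). It had no peak within 1 kb in Cyproheptadine or DKI, the shortest lists (33721 and 30758 peaks). How many other genes had this pattern was not counted. Median strength in Q111SST was 83.5 for the other cascade genes and adaptors, 91.6 for RAS regulators and scaffolds, 72.7 for the other dual-specificity phosphatases, 82.6 for the other Sprouty and Spred genes and 79.5 for ERK output genes. The 4 feedback genes, at a median of 56.5, were thus lower than each of these sets.

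Among the other cascade genes in Q111SST, the RAS gene Nras lay at 95.3. The strongest of the regulators were Rasa1 (98.6), a GTPase activator that turns RAS off, and Shoc2 (96.3), a scaffold that helps activate RAF. Dusp16 (96.7) and Dusp14 (79.4) led the other phosphatases, and Spred3 (99.3) and Spred1 (94.3), inhibitors of RAS to RAF signalling, led the Sprouty and Spred genes. Etv5 and Phlda1, both at 93.0, led the output genes.

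**Figure D5:**
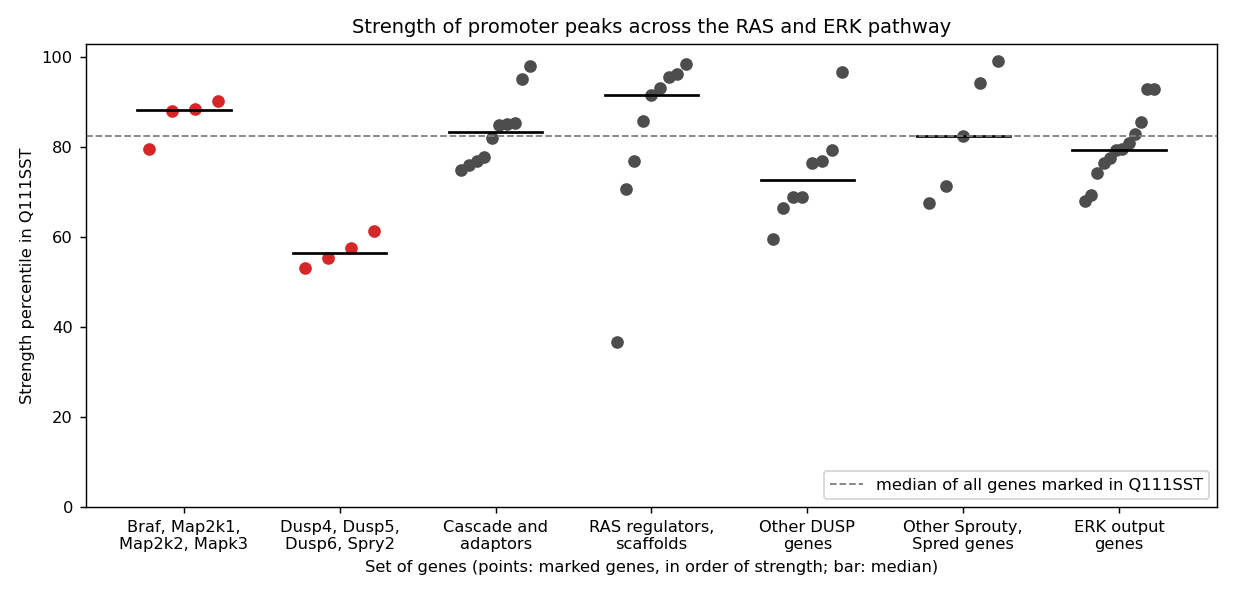
Strength percentile in Q111SST for the 4 cascade genes and 4 feedback genes (red) and for the marked genes of 5 further pathway sets (grey), with the median of each set as a bar and the median of all marked genes (82.6) as a dashed line. The feedback genes lie between 53.1 and 61.3, and of the other dual-specificity phosphatase genes only Dusp2 (59.6) lies in that range.

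In DKI 18 of the 43 pathway genes marked in both lists were lower by 10 points or more (41.9%, beside 38.8% of all genes), and 1 was higher (2.33%, beside 3.55%). In Cyproheptadine 9 of 43 were lower (20.9%, beside 25.9%) and 2 higher (4.65%, beside 3.48%). Of 44 genes, 0 were lower in Loxapine (beside 9.41% of all genes), 0 in Meclizine (10.0%) and 6 in Q7SST (13.6%, beside 13.0%). Rises numbered 2 in Loxapine (beside 7.10% of all genes), 1 in Meclizine (4.18%) and 0 in Q7SST (8.85%).

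Nearest genes were sought for the 3 genes with the widest range of strength percentile among all peaks. They were found by the mean absolute difference in percentile over the 6 lists, among the 11712 other genes marked throughout. Among marked promoters the range of Mapk3 (43.4 to 70.9) was wider than that of Dusp5 (9.90 to 36.5). For Braf the nearest genes were Gfm1, a mitochondrial elongation factor (2.14 points), and Itch, a ubiquitin ligase (2.57). For Map2k1 they were Tsg101 (1.36), a component of endosomal sorting, and Ankrd12 (1.49). For Dusp5 they were Ankrd37 (4.22) and Dgkh, a diacylglycerol kinase (4.45). The Dusp5 values that were matched mix its inner piece (Cyproheptadine and Loxapine) with its start piece (DKI and Meclizine), so its range and its nearest genes depend on which piece lay within 1 kb. Gfm1 also had its lowest value in DKI (55.1) and its highest in Loxapine (86.5).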

How the data were processed

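H3K4me3 peak lists of 6 samples, 1 per condition, were used as deposited by the authors, and conditions were taken from the sample labels. Per the labels and the study's methods, chromatin was digested with MNase, precipitated and sequenced as single-end 50 bp reads. The submitters' processing notes name Trimmomatic 0.36, Bowtie2, SAMtools 1.3, MACS2 and mm10. Thresholds, input controls and the pooling of replicates are not given in the sources used here. The deposited score is a whole number of unstated scale and the authors give no counts, so scores were ranked within each list.

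Any peak at a distance of at most 1 kb from a GENCODE M21 transcript start marked that gene. The strongest such peak gave strength (percentile, ties at mid-rank) and width. Differences from Q111SST were counted at 10 points or 1.5 times, beside the share of all genes. Promoter sequences are from RefSeq (GRCm38.p6), with 6 of the 8 genes matched (not Mapk3 and Dusp4). Python 3.11.15, numpy 2.4.6 and pysam 0.24.0 were used. The marking step was tested on simulated peaks placed within and beyond 1 kb of gene starts, and 400 of 400 genes were correctly called marked or unmarked. Genes named were the 8 members, genes starting under their strongest peaks, pathway genes not marked in all lists or among the strongest of their role, and nearest patterns. A further gene that this rule names is not reported here. The members and lists were chosen with earlier results of these data known. Alternatives changed the window, list size, score threshold, transcript types, scale and step.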

Additional observations from a re-analysis of the deposited data

How the results depend on the processing

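No paired analysis was possible because there is a single list per condition, so the groups share only the number 1. With peaks required to cover a start itself, 5 of the 8 genes were marked in each of Q7SST (53.0% of all genes), Q111SST (51.5%), Cyproheptadine (45.4%) and Loxapine (48.7%). With scores of at least 47, the median over all lists, 4 were marked in DKI (46.6%). That cut was not equally strict in each list, since the median score ran from 40 in Cyproheptadine to 54 in Meclizine. The 5 kb window and protein-coding transcripts alone left the counts of marked genes within 1.5 times, as did lists of equal size.

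Counts of strength changes moved more (percentages here and for width are shares of all genes measured in both lists under the same setting). With lists of equal size, Cyproheptadine had 2 genes higher (10.0% of all genes), Loxapine 1 higher (6.58%) and 2 lower (21.2%), and DKI 1 higher (11.2%) and 3 lower (21.2%). Over the start itself, Cyproheptadine had 0 higher (2.06%), Loxapine 1 higher (4.64%) and 1 lower (9.86%), and DKI 3 lower (39.5%). Ranked among marked promoters, 0 were lower in Q7SST (17.9% of all genes), 2 in Cyproheptadine (26.9%), 1 in Loxapine (18.5%) and 3 in DKI (28.5%). With a step of 5 points, 2 were lower in Q7SST (27.4%), 2 higher (9.68%) and 4 lower (44.1%) in Cyproheptadine, 4 higher (18.6%) and 2 lower (22.4%) in Loxapine, and 3 lower in Meclizine (27.8%).

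Width counts moved with the handling of split peaks. With peaks within 1 kb merged, 1 was wider in Q7SST (5.64%), 1 narrower in Cyproheptadine (14.1%) and 0 narrower in Loxapine (6.98%). The wider one in Q7SST was Spry2. Its gap was 980 bp there and 1031 bp in Q111SST, so its peaks were merged in Q7SST only. With summed widths, 0 were wider in Cyproheptadine (0.448%), Loxapine (2.02%) and Meclizine (2.37%), 1 narrower in Cyproheptadine (16.3%) and 0 in Loxapine (6.25%). With a smaller step of width, 1 was wider in Q7SST (9.83%), and 4 narrower in Cyproheptadine (29.3%), 2 in Loxapine (13.7%) and 4 in DKI (40.7%). By covered length within 4 kb, an alternative chosen after seeing the data, 0 were wider in Cyproheptadine (0.510%), Loxapine (2.38%) and Meclizine (2.55%), and 1 (15.3%), 0 (6.13%) and 1 (4.42%) narrower. Lists of equal size moved all 40 strength percentiles that could change past their 95% counting interval (the 8 of DKI, the shortest list, could not) and no width. That is a binomial (Wilson) interval from the number of peaks in the list, and it holds no spread between experiments. Without replicate lists or read counts, no difference can be set against experimental error.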
